A study of Rattus norvegicus with 4 samples.

Results

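The 10 genes described here encode the precursors of neuropeptides found in the carotid body (CB) and its nerves, namely Npy, Tac1, Penk, Adcyap1, Vip, Gal, Calca, Sst, Adm and Cartpt. They were chosen by gene symbol, and each has 1 row among the 32883 genes of the count table. The CB lies where the carotid artery divides, and its glomus cells sense the oxygen of arterial blood. Total RNA of CBs from Sprague Dawley rats, with no treatment or genetic change named in the labels, was sequenced after poly A+ selection at day 5 (neonates) and at day 21 (called adults in the study, an age around weaning). There were 2 libraries per age, each pooled from 6 pups or from 3 older rats by the series' design text, and the paper's methods give larger pools and more replicates than the labels do. No library therefore shows the spread between single rats, and p-values measure only the spread between these pools. By the study's text the data came from females and males together, and the labels give no sex per library.

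Neuropeptides are made as long precursors, cut by prohormone convertases in the secretory granule, and released to act on G protein-coupled receptors. In the CB, glomus cells, the endings of sensory fibres, sympathetic neurons and vessel cells are all known sources or targets of such peptides, several of which change the response of the organ to hypoxia or its blood flow. A count for a precursor gene says how much mRNA was present, not how much peptide was stored or released. In whole tissue, fewer cells of a type and less RNA per cell cannot be told apart.

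Library totals ran from 36286191 to 39476110 estimated counts. Levels are given as CPM, the standard measure of counts relative to library size, after scaling by edgeR's TMM method. A gene with no reads could still have been present at up to 3 counts, which is 0.0736 to 0.0845 CPM depending on the library, a limit for counting error only. Differences are log2 fold changes of neonates over adults with their standard error (SE), tested with edgeR's quasi-likelihood test, with p-values adjusted by Benjamini-Hochberg across the 13838 genes that entered it. A gene that passed the test had an adjusted p under 0.05, and it was called if the change was also at least 2-fold. For 1 gene alone, 2 libraries against 2 allow no two-sided exact permutation p below 0.333.

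The tissue label was checked against marker genes. Glomus cell markers were abundant at both ages, with Th (the enzyme that starts catecholamine synthesis) at 1020 and 837 CPM in the neonatal libraries and 1407 and 1136 CPM in the adult libraries. The summed CPM of 12 glomus markers ran from 4302 to 5627 in neonates and from 3970 to 4760 in adults. Of these markers, Chga had 1726 and 794 CPM in neonates and 786 and 661 CPM in adults, so the neonatal range rests largely on it. A list of 12 sympathetic neuron markers summed to between 2016 and 2389 CPM in neonates and between 1166 and 1448 CPM in adults. Parathyroid markers stood apart, since Pth, Gcm2 and Casr summed to 1797 CPM in the first neonatal replicate and to 212 CPM in the second, against 0.0245 and 0.0504 CPM in the adult libraries. Pth and Gcm2 had 0 counts in both adult libraries. Chga was likewise higher in neonate replicate 1. So was Gata3, another of the 12 glomus markers, with 12.8 and 5.74 CPM in neonates and 3.63 and 2.87 CPM in adults. The parathyroid part in the levels of Chga and Gata3 was not tested. Results are therefore also given without neonate replicate 1 where that changes them. The summed ranges in neonates and adults were 1142 to 2245 and 1926 to 2057 CPM for Schwann and sustentacular cells, 1245 to 1284 and 1217 to 1266 CPM for endothelium, 627 to 658 and 772 to 903 CPM for smooth muscle, 13008 to 15539 and 16783 to 18616 CPM for fibroblasts, 69.2 to 77.5 and 101.98 to 105 CPM for macrophages, 146 to 150 and 39.3 to 47.9 CPM for mast cells, and 24.0 to 29.0 and 47.9 to 52.2 CPM for skeletal muscle.

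Of the 10 neuropeptide genes, 8 passed the filter on low counts (1 CPM or more in 2 or more libraries) and were tested, while Calca and Sst did not. Npy, Adcyap1 and Gal were called, all of them higher in neonates, and Cartpt and Penk passed the test toward neonates by less than 2-fold. Tac1, Vip and Adm did not pass it. Over all genes tested, 7.68% were called higher in neonates and 13.2% lower, and 20.8% were called in either direction. The test without the fold limit was passed by 62.3% of all genes, and by 31.2% of all genes toward neonates. The median log2 fold change of the 8 genes, which leaves out Sst and Calca, was 0.67, against -0.0029 over all genes tested. None of the 8 was called lower in neonates by edgeR, DESeq2 or limma-voom, and 0 had an unadjusted p under 0.05 in that direction in edgeR's quasi-likelihood test. Both neonatal libraries lay above both adult libraries for 5 of the 8 genes. The same held for 41.3% of all genes tested, and 83.0% had no overlap in either direction. The libraries of the 2 ages overlapped for the other 3 of the 8 genes. Gal reached 1 CPM in only 1 adult library, so it could meet the filter only with a neonatal library, where it was high. Its call, and its place in the median and the count of 5, therefore say nothing about the direction of the list.

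**Figure D1:**
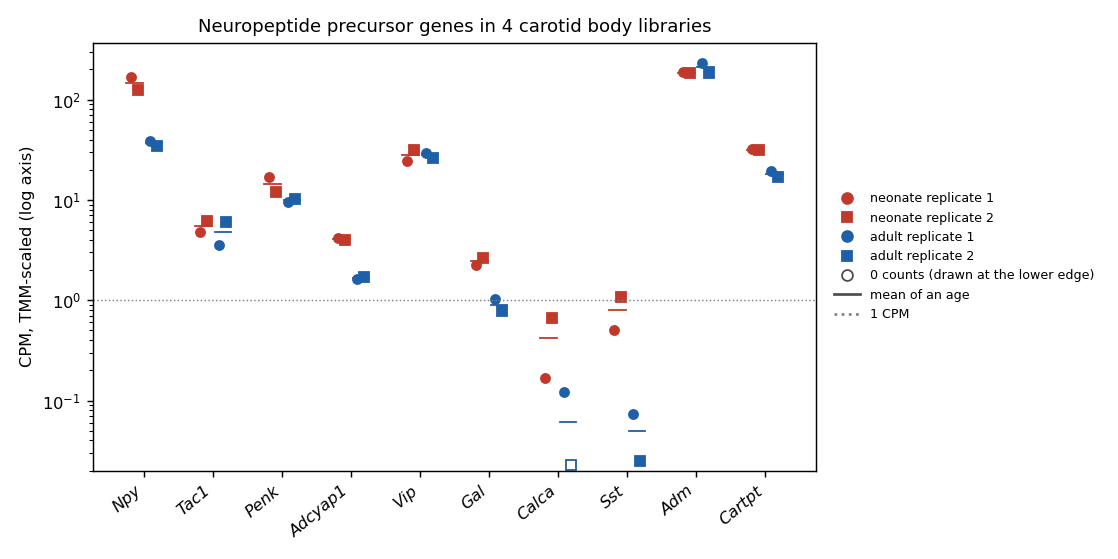
CPM (TMM-scaled, log axis) of the 10 neuropeptide genes in each library, with neonates in red and adults in blue, circles for replicate 1, squares for replicate 2, and short lines for the mean of an age. Npy, Penk, Adcyap1, Gal and Cartpt have no overlap between ages, Vip, Tac1 and Adm overlap, and Calca and Sst lie under or around 1 CPM.

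Npy (ENSRNOG00000046449) encodes neuropeptide Y, a co-transmitter of sympathetic neurons that constricts vessels and is also found in glomus cells. Its level was 169 and 125 CPM in the neonatal libraries and 38.5 and 34.9 CPM in the adult libraries. The neonatal libraries were both more than 3 times as high as either adult library. Neonates exceeded adults by 2.002 on the log2 scale (SE 0.14), or 4.01-fold (adjusted p = 8.2e-06, edgeR's quasi-likelihood test). It stayed called under all 12 alternatives, with log2 fold changes from 1.75 with library size alone to 2.21 without neonate replicate 2, and it was 1.77 without neonate replicate 1. Npy has fractional estimated counts, so a part of its reads was shared with another sequence. The same holds for Tac1 among the neuropeptide genes, and for Ramp2 and Pcsk1 among the receptor and enzyme genes given below.

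Sympathetic neuron markers moved in both directions. Of the 12 on that list, 11 were tested, 7 passed the test toward neonates (31.2% of all genes did), 4 of these were called (7.68% of all genes), Eya1 was called toward adults (13.2% of all genes), and Chrna3, Chrnb4 and Isl1 did not pass. Of the 12 glomus cell markers, 5 passed toward neonates and 3 toward adults, where 31.2% and 31.1% of all genes did. The 5 include Chga and Gata3, both highest in neonate replicate 1. No test compared these lists with each other or with other genes. Prph, Stmn2 and Gap43 are the most abundant of the sympathetic list, and Slc6a2, Dbh and Eya1 were picked after their values were seen. Slc6a2, the noradrenaline transporter, had 177 and 118 CPM in neonates and 49.5 and 44.5 CPM in adults, which is a log2 fold change of 1.65 (SE 0.17, adjusted p = 5.0e-05, edgeR's quasi-likelihood test). Dbh, which converts dopamine to noradrenaline, had 216 and 139 CPM in neonates and 83.9 and 59.4 CPM in adults. As with Npy, neonate replicate 1 was the higher of the neonatal libraries in both genes.

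The 3 most abundant genes on the list all passed the test with changes under 2-fold. Prph, an intermediate filament of peripheral neurons, was at 0.61 (SE 0.11), Stmn2, a regulator of axonal microtubules, was at 0.59 (SE 0.12), and Gap43, a protein of growing axons, was at 0.96 (SE 0.094), all on the log2 scale. Eya1 went the other way, at -1.78. For each count of Slc6a2 there were 0.956 and 1.06 counts of Npy in the neonatal libraries and 0.777 and 0.784 in the adult libraries, and for each count of Dbh there were 0.782 and 0.896 against 0.459 and 0.587. These ratios were chosen after the values were seen, and within a gene pair they do not depend on library scaling. For each count of Th the ratio was 0.166 and 0.149 in neonates and 0.0273 and 0.0307 in adults. The neonatal ratios were thus above the adult ones against Slc6a2, Dbh and Th, least so against Slc6a2. The part of sympathetic neurons in the difference of Npy was not tested.

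**Figure D2:**
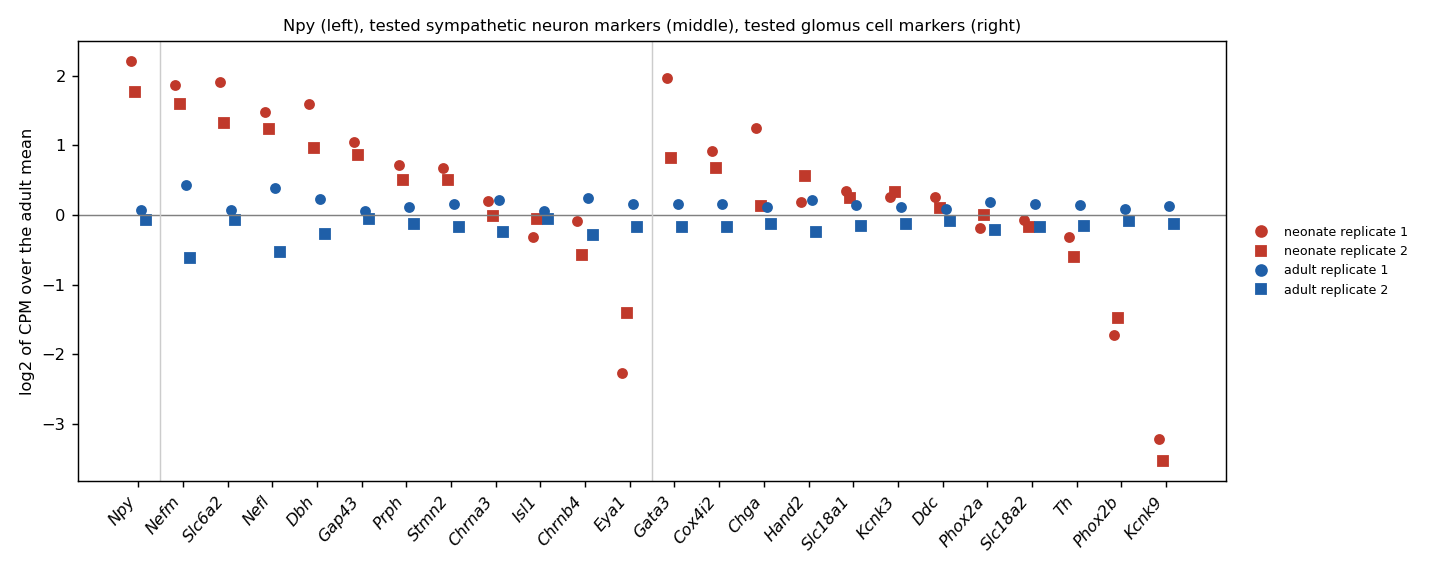
CPM of Npy, of the 11 tested sympathetic neuron markers and of the 12 glomus cell markers in each library, as log2 over the adult mean of the gene, with neonates in red, adults in blue, circles for replicate 1 and squares for replicate 2. Npy lies highest in the neonatal libraries, Slc6a2, Dbh, Nefl, Nefm and Gap43 follow it, and the glomus markers spread to both sides, from Gata3 above 0 to Kcnk9 below it.

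The promoter of Npy is shown because this gene had the largest change of the tested neuropeptide genes relative to its SE. It is the 250 bases before the start that RefSeq gives on the assembly GRCr8, chr4:80211861-80212110, plus strand. Capitals in these sequences mark the letters TGACGTCA (the cAMP response element), ACGTG (the core of the hypoxia response element) and TATAAA (the TATA box), searched on both strands, and none of them occurs in this window.
Npy: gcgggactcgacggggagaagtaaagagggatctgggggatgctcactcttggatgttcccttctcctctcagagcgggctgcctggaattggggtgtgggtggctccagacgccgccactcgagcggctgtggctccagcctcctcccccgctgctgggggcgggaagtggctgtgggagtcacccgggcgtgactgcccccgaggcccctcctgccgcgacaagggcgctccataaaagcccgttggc

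Adcyap1 (ENSRNOG00000049882) encodes PACAP, a peptide that raises cAMP in glomus cells and sympathetic neurons. It had 4.17 and 4.01 CPM in neonates and 1.62 and 1.71 CPM in adults. The libraries of an age were close to each other, and those of neonates were more than 2 times as high as those of adults. The change was 1.29 in log2 (SE 0.29, adjusted p = 0.0041, edgeR's quasi-likelihood test), and it was 1.27 without neonate replicate 1 and 1.05 with library size alone, called in each of its 11 alternatives.

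Gal (ENSRNOG00000015156) encodes galanin, a peptide of sympathetic and sensory neurons. Its levels were low, with 80 and 94 counts in the neonatal libraries and 42 and 31 counts in the adult libraries. In CPM these were 2.25 and 2.62 against 1.03 and 0.781. Of the adult libraries only replicate 1 reached 1 CPM, so Gal could meet the filter only with a neonatal library. Both neonatal libraries were above both adult libraries, by a log2 fold change of 1.42 (SE 0.36, adjusted p = 0.0078, edgeR's quasi-likelihood test). Without adult replicate 2, the library with the lower level, it was 1.24 and the adjusted p rose to 0.082, so the call rests on that library.

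The promoter of Gal, chr1:210084573-210084822 on the minus strand of GRCr8, is shown as the second of the 3 called genes. That of Adcyap1 is not shown, because the start in the RefSeq promoter table is not the annotated start of its gene. The window of Gal holds TATAAA from 41 to 36 bases before the start, and ACGTG on the opposite strand in the last 5 bases.
Gal: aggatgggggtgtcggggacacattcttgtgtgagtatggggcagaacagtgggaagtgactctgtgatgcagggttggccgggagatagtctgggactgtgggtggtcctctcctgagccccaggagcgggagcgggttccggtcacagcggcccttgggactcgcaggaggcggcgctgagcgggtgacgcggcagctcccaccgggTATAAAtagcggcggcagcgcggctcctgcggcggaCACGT

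Cartpt (ENSRNOG00000017712) encodes CART peptides, found in neurons of the sympathetic and vagal ganglia among others. It had 32.0 and 31.4 CPM in neonates and 19.6 and 16.9 CPM in adults. The neonatal libraries differed by less than 1 CPM and both lay above the adult ones. This was a change of 0.80 on the log2 scale (SE 0.11), or 1.74-fold (adjusted p = 0.00026, edgeR's quasi-likelihood test), and it passed the test under every alternative while staying below 2-fold.

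Penk (ENSRNOG00000008943) encodes the precursor of the enkephalins, opioid peptides stored in glomus cells. Its levels were 16.99 and 12.0 CPM in neonates and 9.62 and 10.2 CPM in adults, with neonate replicate 2 only slightly above the adult libraries. The difference was 0.55 on the log2 scale (SE 0.19, adjusted p = 0.031, edgeR's quasi-likelihood test). It was 0.28 (adjusted p = 0.21) without neonate replicate 1, 0.30 (adjusted p = 0.19) with library size alone, 0.51 (adjusted p = 0.11) without adult replicate 1 and 0.59 (adjusted p = 0.072) without adult replicate 2. Neonate replicate 1 is also the library in which the parathyroid markers summed to 1797 CPM, and their part in the level of Penk was not tested.

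Sst (ENSRNOG00000001837), the gene of somatostatin, an inhibitory peptide, had 18 and 39 counts in the neonatal libraries and 3 and 1 counts in the adult libraries. Only neonate replicate 2 reached 1 CPM, so the gene was not tested. Summed over the libraries of an age and scaled by their size, the ratio of neonates to adults was 16.0, with a 95% interval from 5.94 to 60.9 (exact Clopper-Pearson, counting error only). With no filter on low counts its log2 fold change was 3.89 (SE 0.99, adjusted p = 0.010, edgeR's quasi-likelihood test over 19405 genes), and 5.84% of those genes were called higher in neonates.

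Calca (ENSRNOG00000011130) encodes calcitonin and, by alternative splicing, the sensory neuron peptide CGRP, which a count per gene does not separate. It had 6 and 24 counts in neonates and 5 and 0 counts in adults. The ages were apart by a single count, and with no filter the adjusted p was 0.15 in edgeR's quasi-likelihood test. Neonate replicate 2 was the higher library for both Sst and Calca, while the parathyroid markers were higher in neonate replicate 1. Of the thyroid follicle genes, Nkx2-1 and Foxe1 had 0 counts in every library, and the list of 7 summed to between 1.21 and 2.21 CPM over all libraries.

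The cAMP response element TGACGTCA was found in the RefSeq windows of Sst and Cartpt, of the 9 neuropeptide genes that have one (250 bases before the start and 50 from it on), and in 1.83% of all 33469 such windows. Both stretches of 30 bases are shown with the element in capitals, on the plus strand at chr11:90461537-90461566 for Sst and on the minus strand at chr2:32991359-32991388 for Cartpt, in GRCr8.
Sst: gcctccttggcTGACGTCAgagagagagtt
Cartpt: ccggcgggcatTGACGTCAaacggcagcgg
Counted from the start that the table gives, the element runs from base 3 to base 10 in Sst and from 142 to 135 bases before it in Cartpt, whose start in the table is not the annotated start of the gene. ACGTG was found in the windows of Gal and Tac1 (in Tac1 as both strands of 1 overlapping site) and in 19.3% of all windows, and TATAAA in those of Vip, Gal and Adcyap1 and in 14.2%. A match of letters is a description and not a binding site.

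Tac1 (ENSRNOG00000007374), the gene of substance P and neurokinin A, peptides of sensory fibres that excite the CB, had 4.82 and 6.15 CPM in neonates and 3.58 and 6.07 CPM in adults. The spread between the adult libraries was wider than the gap between the ages. The log2 fold change was 0.18 (SE 0.30, adjusted p = 0.61, edgeR's quasi-likelihood test), and it was -0.06 with library size alone.

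Markers of sensory ganglion neurons, whose fibres carry substance P and CGRP, were few. Trpv1, P2rx3 and Avil were tested and did not pass, Scn10a, Scn11a and Drgx were under the filter, Pou4f1 had 1 count in 1 library, and Prdm12 and Isl2 had 0 counts everywhere. Their part in the levels of Tac1 and Calca was not tested.

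Vip (ENSRNOG00000018808), the gene of a vasodilator peptide of autonomic and sensory nerves, had 24.5 and 31.5 CPM in neonates and 29.2 and 26.4 CPM in adults. Both adult libraries fell between the neonatal ones. Its log2 fold change of 0.01 (SE 0.13, adjusted p = 0.95, edgeR's quasi-likelihood test) had the opposite sign under several alternatives.

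Adm (ENSRNOG00000027030) encodes adrenomedullin, a vasodilator made by endothelium, smooth muscle and glomus cells and induced by hypoxia. It had 188 and 183 CPM in neonates and 233 and 186 CPM in adults. Adult replicate 2 lay between the neonatal libraries, and only adult replicate 1 stood above them. The log2 fold change was -0.18 (SE 0.11, adjusted p = 0.18, edgeR's quasi-likelihood test), within a range from -0.42 (library size alone, with an adjusted p of 0.0087) to -0.00086 (without adult replicate 1, with an adjusted p of 0.99), and without adult replicate 2 it was -0.33 with an adjusted p of 0.013. Over all genes, 31.2% passed the test toward neonates and 31.1% toward adults. Endothelial markers passed it in both directions (2 toward neonates and 3 toward adults, of 8 tested). Of 6 smooth muscle markers 4 passed toward adults and 0 toward neonates, with sums of 627 and 658 CPM in neonates and 772 and 903 CPM in adults. The part of either cell type in the level of Adm was not tested.

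Genes whose levels over the 4 libraries followed these genes most closely were looked up as the 2 with the smallest Euclidean distance between log2 profiles, each centred on its own mean. They were Cdc20 and Fam83d for Npy (0.083 and 0.084), Hnrnpab and Myl12b for Cartpt (0.019 and 0.023), Lmnb2 and an unnamed Ensembl gene for Penk (0.050 and 0.033), Pigf and Trib2 for Vip (0.024 and 0.049), and Cmpk2 and Pdxp for Adm (0.027 and 0.036). With 4 libraries in 2 ages, this likeness is a description only.

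The receptors of these peptides were compared next. Of 28 genes of receptors and their accessory proteins, 25 were in the table and 12 were tested. Npy1r, Tacr3 and Calcrl were called, all lower in neonates, and 0 were called higher by edgeR, DESeq2 or limma-voom, while over all genes 13.2% were called lower and 7.68% higher. In edgeR's quasi-likelihood test 6 passed toward adults and 1, Ramp2, toward neonates, and 1 had an unadjusted p under 0.05 toward neonates, where 31.1% of all genes passed toward adults. Tacr3 reached 1 CPM in the adult libraries alone, so it could enter the test only by being high there, and its call says nothing about the direction of the list. The median log2 fold change of the 12 was -0.61, against -0.0029 over all genes tested. Both neonatal libraries lay below both adult ones for 10 of the 12, as they did for 41.7% of all genes. The median and the count of 10 both include Tacr3, so the same limit holds for them. They also include Oprk1, which reached 1 CPM in only 1 neonatal library and so could meet the filter only with an adult library.

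**Figure D3:**
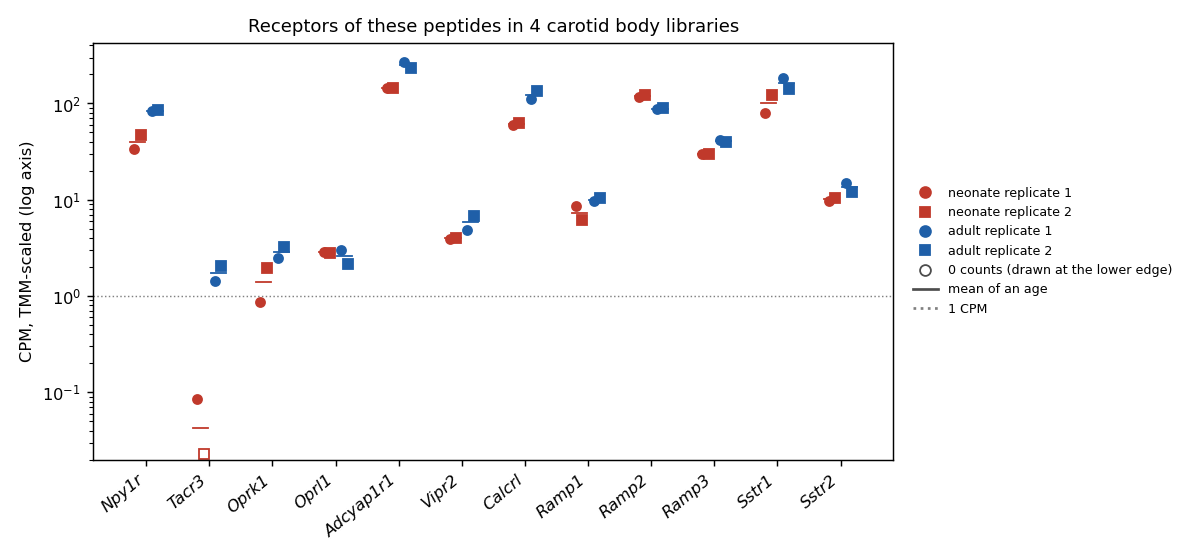
CPM (TMM-scaled, log axis) of the 12 tested receptor genes in each library, with neonates in red and adults in blue, circles for replicate 1, squares for replicate 2, and short lines for the mean of an age. For 10 of the 12 both adult libraries lie above both neonatal ones, Ramp2 shows the opposite order, and Oprl1 overlaps.

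Npy1r, the Y1 receptor through which NPY constricts vessels, had 33.6 and 46.7 CPM in neonates and 83.4 and 85.1 CPM in adults. The direction was opposite to that of Npy itself. Its log2 fold change was -1.07 (SE 0.14, adjusted p = 0.00021, edgeR's quasi-likelihood test), and it was -0.85 (adjusted p = 5.7e-05), under 2-fold, without neonate replicate 1. Npy2r, Npy4r and Npy5r stayed under the filter, with between 0 and 18 counts in a library.

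For PACAP and VIP, the PACAP receptor gene Adcyap1r1 had 146 CPM in both neonatal libraries and 268 and 233 CPM in adults. The log2 fold change was -0.78 (SE 0.088, adjusted p = 9.2e-05, edgeR's quasi-likelihood test), opposite in sign to that of Adcyap1, and it passed 2-fold only with library size alone, at -1.02. Vipr2, which binds both peptides, had 3.94 and 4.04 CPM in neonates and 4.91 and 6.70 CPM in adults and did not pass the test (-0.54, SE 0.26), except with library size alone (-0.79, adjusted p = 0.026).

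CGRP and adrenomedullin share a receptor made of Calcrl and 1 of 3 accessory proteins, Ramp1 for CGRP and Ramp2 or Ramp3 for adrenomedullin. Calcrl had 59.9 and 62.0 CPM in neonates and 111 and 135 CPM in adults, which is a log2 fold change of -1.01 (SE 0.10, adjusted p = 4.8e-05, edgeR's quasi-likelihood test). It fell just short of 2-fold without neonate replicate 1 (-0.99) and without adult replicate 2 (-0.87), with adjusted p of 7.6e-05 and 7.4e-05 from the same test. The accessory proteins did not move alike. Ramp2 was higher in neonates, with 117 and 121 CPM against 86.9 and 89.7 CPM (0.43, SE 0.075, adjusted p = 0.0010), Ramp3 was lower, with 29.97 and 29.8 CPM against 41.5 and 39.4 CPM (-0.44, SE 0.090, adjusted p = 0.0026, both from edgeR's quasi-likelihood test), and Ramp1, with 8.59 and 6.15 CPM against 9.67 and 10.4 CPM, did not pass the test (-0.44, SE 0.21). Ramp1 did pass without neonate replicate 1 (-0.70, adjusted p = 0.013) and with library size alone (-0.69, adjusted p = 0.018), and it was -0.21 without neonate replicate 2. With library size alone Ramp2 was at 0.19 with an adjusted p of 0.081. The gene of the calcitonin receptor, Calcr, had between 0 and 7 counts.

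Of the somatostatin receptors, Sstr1 had 80.1 and 123 CPM in neonates and 185 and 142 CPM in adults, which is a log2 fold change of -0.69 (SE 0.19, adjusted p = 0.011, edgeR's quasi-likelihood test), and without neonate replicate 2 it was -1.02 and called. It was -0.41 (adjusted p = 0.033) without neonate replicate 1 and -0.48 (adjusted p = 0.042) without adult replicate 1, in the same test. DESeq2 gave Sstr1 an adjusted p of 0.094. Sstr2, with 9.75 and 10.5 CPM against 15.0 and 12.2 CPM, missed the threshold (-0.42, SE 0.17, adjusted p = 0.0505). Its adjusted p ran from 0.0073 with library size alone to 0.38 without adult replicate 1. For both genes the adult libraries lay above the neonatal ones, while Sst had 3 and 1 counts in adults.

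Tacr3, the receptor that prefers neurokinin B, had 3 and 0 counts in neonates and 58 and 81 counts in adults. The ratio of adults to neonates on summed and scaled counts was 41.1, with a 95% interval from 13.8 to 202 (exact Clopper-Pearson, counting error only), and the adjusted p was 0.00037 in edgeR's quasi-likelihood test. Tacr1, the receptor of substance P, had between 0 and 4 counts and Tacr2 had 0 in every library. Among the opioid receptors, Oprk1 had 0.873 and 1.95 CPM in neonates and 2.50 and 3.23 CPM in adults and did not pass (-1.02, SE 0.42, adjusted p = 0.061), Oprl1 was at 0.14 (SE 0.31), and Oprm1 and Oprd1 had 0 counts in every library, which allows up to 0.0845 CPM in the library with the highest floor. Oprk1 was called without neonate replicate 2 (-1.70), by limma-voom (-1.11) and with library size alone (-1.26). It was -0.55 (adjusted p = 0.20) without neonate replicate 1 and -0.83 (adjusted p = 0.26) without adult replicate 2. Galr1 and Galr3 stayed under the filter, and Npy6r, Vipr1 and Galr2 were not analysed here.

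**Figure D4:**
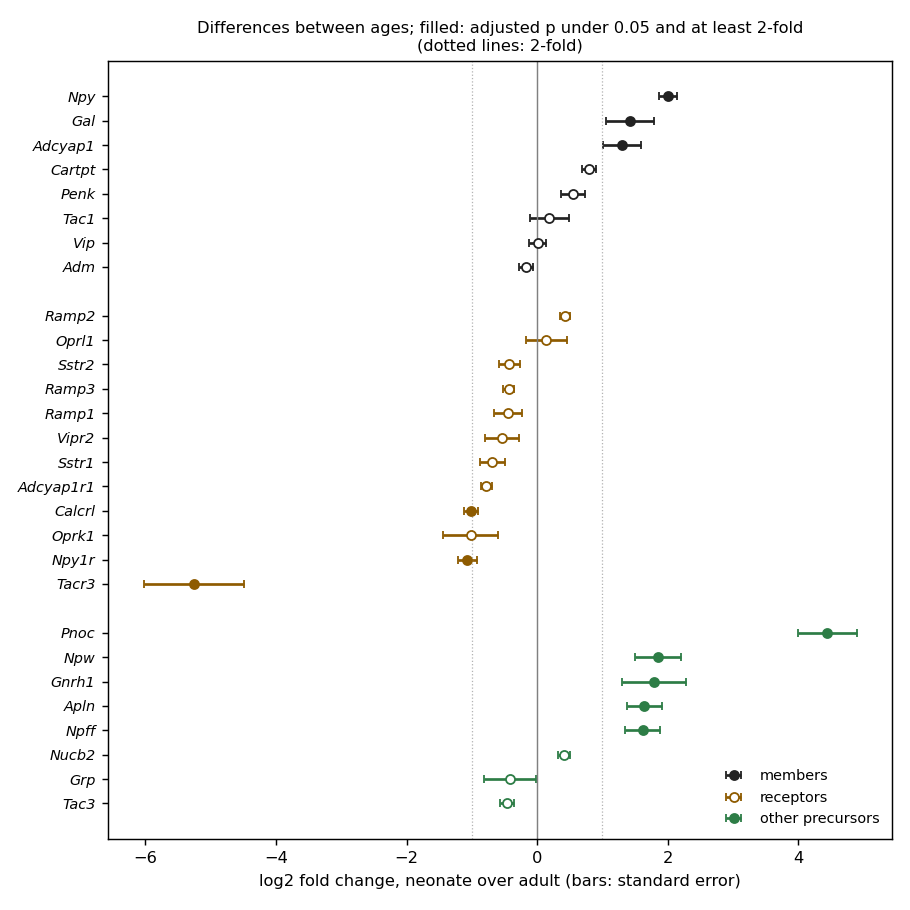
Log2 fold change of neonates over adults with its standard error for the 8 tested neuropeptide genes (black), the 12 tested receptor genes (brown) and the 8 other tested precursor genes (green), with filled points for genes called. Npy, Gal and Adcyap1 lie past the 2-fold line on the neonatal side, and Calcrl, Npy1r and Tacr3 past it on the adult side.

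For a wider view, 52 other genes of neuropeptide precursors were listed, of which 49 were in the table and 8 were tested. Called higher in neonates were 5 (7.68% over all genes), and 0 were called lower by edgeR, DESeq2 or limma-voom, with 1 (Tac3) at an unadjusted p under 0.05 toward adults in edgeR's quasi-likelihood test. Pnoc, Npw and Gnrh1 reached 1 CPM in the neonatal libraries alone, so they could enter the test only by being high there, and the count of 5 says nothing about the direction of the list. Of the genes that were not tested, 14 had 0 counts in every library.

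Pnoc, the precursor of nociceptin, had 156 and 119 counts in neonates and 9 and 5 counts in adults, a log2 fold change of 4.44 (SE 0.45, adjusted p = 5.2e-05, edgeR's quasi-likelihood test). Its receptor Oprl1 is the gene at 0.14 above. Apln, the gene of the vasoactive peptide apelin, had 14.7 and 12.6 CPM in neonates and 3.22 and 5.52 CPM in adults, which is a log2 fold change of 1.64 (SE 0.26). Npff, the precursor of neuropeptide FF, had 7.83 and 5.99 CPM against 2.38 and 2.12 CPM (1.62, SE 0.27). Npw and Gnrh1, with log2 fold changes of 1.86 (SE 0.35) and 1.78 (SE 0.49), were at under 3 CPM in every library, and Gnrh1 lost its call without adult replicate 1 (1.36, adjusted p = 0.10, edgeR's quasi-likelihood test).

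Tac3, the precursor of neurokinin B and so of the ligand of Tacr3, went the other way, with 48.1 and 41.2 CPM in neonates and 63.9 and 58.6 CPM in adults. Its log2 fold change was -0.46 (SE 0.11, adjusted p = 0.0051, edgeR's quasi-likelihood test). Tacr3 could enter the test only by being high in adults, so no agreement of this ligand and receptor can be read from it. For Npy with Npy1r and for Adcyap1 with Adcyap1r1, ligand and receptor passed the test in opposite directions. Over all genes, 62.3% passed it in either direction.

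Of 18 enzymes and helpers that process or degrade neuropeptides, 17 were tested, and 1 was called higher and 3 lower in neonates, against 7.68% and 13.2% of all genes. Their median log2 fold change was -0.39. The prohormone convertases differed in direction. Pcsk1 had 2.23 and 1.45 CPM in neonates and 5.11 and 12.4 CPM in adults, which is a log2 fold change of -2.25 (SE 0.43, adjusted p = 0.0017, edgeR's quasi-likelihood test). Pcsk2 had 6.20 and 3.54 CPM against 2.09 and 2.50 CPM, at 1.09 (SE 0.33), and without neonate replicate 1, the library with more parathyroid RNA, it was 0.63 with an adjusted p of 0.11 from the same test. Its adjusted p was also above the threshold without adult replicate 1 (0.10), without adult replicate 2 (0.0505) and with library size alone (0.053). The parathyroid part in Pcsk2 was not tested.

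Pam, which amidates the ends of peptides such as NPY, PACAP and CGRP, had 284 and 268 CPM in neonates and 408 and 420 CPM in adults (-0.58, SE 0.082). Of the peptidases, Ace was at -1.10 (SE 0.15) and Dpp4, which trims NPY, was at -1.06 (SE 0.31), both called lower in neonates. Dpp4 was at -0.68 without neonate replicate 1 and at -0.77 (adjusted p = 0.12, edgeR's quasi-likelihood test) without adult replicate 2, and Ace was at -0.89 without adult replicate 2, all under 2-fold.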

How the data were processed

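RNA of CBs pooled from neonates and adults was measured in 4 libraries. The authors deposited estimated counts per gene, not normalized, made by trimming the reads, aligning them with STAR to Rnor 6.0 and quantifying with Salmon (version 1.5.2 in the submitters' processing notes). Counts were rounded. Genes annotated as other than protein-coding in the RefSeq table of GRCr8 (642) were removed, and those reaching 1 CPM in 2 or more libraries were tested (13838). Ages were compared by edgeR 4.0.16 (R 4.3.3) without covariates. The levels printed are CPM on the TMM-scaled library sizes, with factors of 0.902, 0.935, 1.08 and 1.10. Alternatives were DESeq2 1.42.0, limma-voom (limma 3.58.1), RLE size factors, library size alone, no filter, a filter at a mean of 5 CPM, no removal of non-coding genes, a replicate block, no minimum fold change, and each library left out.

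The genes to name were, by rule, the 10 members, their tested receptors, the called genes of the other lists, the 3 most abundant markers of each cell type with all thyroid, parathyroid and sensory markers, and the 2 genes nearest in profile to each tested member of at least 10 CPM. Of these, only markers that bear on a result are named, some markers are not reported here, and Slc6a2, Dbh, Nefl, Nefm, Eya1, Chrna3, Chrnb4, Isl1, Gata3, Kcnk9, Pam and Tac3 were named after their values were seen. The members and lists were chosen with earlier results of these data known. The fits were tested on simulated data. The replicates of an age differed by 36.7 (neonates) and 17.1 (adults) in chi-square per degree of freedom, above sampling noise, and nothing says whether the pools within an age shared a litter. Levels are not compared between genes, since no transcript lengths were used. Promoters came from RefSeq on GRCr8, another assembly than that of the counts, and Penk had none there.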

Additional observations from a re-analysis of the deposited data

How the results depend on the processing

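Of the results given, the calls of Npy, Adcyap1, Tacr3, Pnoc, Apln, Npff, Npw and Pcsk1 held under every alternative that could be run for them. With a mean of at least 5 CPM, Adcyap1 and Gal were not tested, and 1 neuropeptide gene, 1 other precursor, 0 processing or degrading enzymes higher in neonates, and 654 higher and 1169 lower genes of all were called. Without a minimum fold change, 5 neuropeptide genes, 1 receptor and 3 enzymes were higher in neonates and 6 receptors, 1 other precursor and 8 enzymes lower, with 4324 and 4298 of all genes. With library size alone, which shifted the median of all genes from -0.0029 to -0.25 in log2, 5 receptors were called lower, 0 enzymes higher, and of all genes 704 were higher and 2547 lower in place of 1063 and 1821. Leaving out 1 library moved the receptors called lower from 1 (without neonate replicate 1, where Npy1r and Calcrl fell under 2-fold) to 5 (without neonate replicate 2), the enzymes called higher from 0 to 1, and those called lower from 1 (without adult replicate 2) to 4 (without neonate replicate 2). Changes of sign occurred for Tac1, at -0.06 with library size alone and -0.15 to 0.61 with 1 library left out, for Vip, at -0.23 with library size alone, -0.015 with no filter, -0.026 with a mean of at least 5 CPM, and -0.18 to 0.18 with 1 library left out (-0.060 without adult replicate 2), and for Oprl1, at -0.11 with library size alone and -0.087 to 0.41 with 1 library left out, none of which passed the test. The causes of these moves were not tested.

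The replicate numbers gave no sign of pairing, with a correlation over genes of -0.016 between the ages for replicate 1 minus replicate 2. With the replicate block, 3 neuropeptide genes and 5 other precursors were higher, 4 receptors were lower (Oprk1 was added, at -1.10), and 1071 genes of all were higher and 1864 lower. Genes near 1 CPM, such as Gal, Sst and Calca, rest on few counts, and for these the depth limits what can be seen.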
